A study of Mus musculus with 9 samples.

Results

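10 genes of the ADAMTS family were followed through a culture experiment on the fetal mouse ovary, with the abundant gonadal Adamts19 set beside 9 relatives. The members, Adamts1, Adamts2, Adamts4, Adamts5, Adamts9, Adamts12, Adamts15, Adamts17, Adamts19 and Adamts20, were the rows with these symbols, 10 of the 23420 genes counted. They were chosen with earlier results of these data known, and Adamts19 was chosen by its high level. Its difference between BMP2 and vehicle was already known and is treated as used in the choice too, so both are described here without a test. The tissue was wild-type ovary of CD1 mice, collected on embryonic day 16 and kept for 24 hours on culture inserts in a phenol red-free α-MEM medium with antibiotics, insulin, transferrin, selenium and linoleic acid. The first group received recombinant human bone morphogenetic protein 2 (BMP2) at 50 ng/ml, another the oestrogen estradiol-17β (E2) at 3.67 µM, and the last vehicle. Each group had 3 RNA-seq libraries, 9 in all, and whether each library is a culture or animal of its own is not stated in the labels. The tests therefore reflect the variation among these 9 libraries, part or all of which may be technical. Groups were read from the prefixes of the sample titles. Reads assigned to genes totalled 30418674 to 34320077 per library.

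ADAMTS proteins (a disintegrin and metalloproteinase with thrombospondin motifs) are secreted zinc proteases that cut the extracellular matrix. They are made as proproteins, activated by furin-like convertases and held in check by tissue inhibitors of metalloproteinases, chiefly TIMP3. Their substrates include the large proteoglycans versican and aggrecan, procollagens and components of fibrillin microfibrils. In the adult ovary ADAMTS1, induced through the progesterone receptor, cuts versican in the ovulating follicle. ADAMTS17 and ADAMTS19 are each other's closest relatives, and Adamts19 is known in the mouse for its expression in the fetal gonad and its part in heart valve formation.

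Windows from RefSeq's promoter table (GRCm38.p6) were used for 6 of the 10 members, which does not show that the others lack an entry there. 4 of these 6 were called with E2. The 250 bases before the start of each are shown because these 4 genes passed the test with E2, with Adamts12 higher and the other 3 lower. The windows are chr7:66839485-66839734 for Adamts17 and chr15:11064523-11064772 for Adamts12, both on the plus strand. They are chr16:85803114-85803363 on the minus strand for Adamts1 and chr11:50601835-50602084 on the plus strand for Adamts2. Sequences run 5′ to 3′, and capitals mark the oestrogen response element half-site GGTCA, the SMAD element GGCGCC and the SMAD motif CAGAC on either strand.
Adamts17: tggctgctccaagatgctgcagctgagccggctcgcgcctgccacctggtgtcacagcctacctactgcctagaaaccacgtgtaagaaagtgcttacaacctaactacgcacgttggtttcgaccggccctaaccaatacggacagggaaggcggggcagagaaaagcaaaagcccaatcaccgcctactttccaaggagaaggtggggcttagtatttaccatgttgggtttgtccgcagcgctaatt
Adamts12: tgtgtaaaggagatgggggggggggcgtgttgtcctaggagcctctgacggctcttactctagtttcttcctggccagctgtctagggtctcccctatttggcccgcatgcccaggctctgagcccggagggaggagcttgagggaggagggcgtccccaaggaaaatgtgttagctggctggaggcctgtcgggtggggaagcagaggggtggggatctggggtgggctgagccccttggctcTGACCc
Adamts1: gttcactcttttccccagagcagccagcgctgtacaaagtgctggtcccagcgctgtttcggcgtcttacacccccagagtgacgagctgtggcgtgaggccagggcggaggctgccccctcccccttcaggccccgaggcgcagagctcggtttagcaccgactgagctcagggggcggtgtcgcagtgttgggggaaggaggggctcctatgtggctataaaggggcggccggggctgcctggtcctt
Adamts2: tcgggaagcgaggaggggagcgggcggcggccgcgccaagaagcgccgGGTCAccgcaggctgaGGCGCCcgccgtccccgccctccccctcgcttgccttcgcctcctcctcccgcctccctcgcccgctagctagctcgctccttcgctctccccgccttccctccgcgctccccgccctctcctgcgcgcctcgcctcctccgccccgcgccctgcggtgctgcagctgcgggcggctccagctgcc
The half-site was found in the window of Adamts12 and in that of Adamts2, and 35.2% of all 32851 promoter windows of this length hold it. GGCGCC was found in Adamts2, against 9.59% of all windows, and CAGAC, held by 42.2% of windows, in none of the 4. The full oestrogen response element GGTCANNNTGACC, which contains the half-site on each strand, was in none of these 4 and in 0.0639% of all windows. The GC box GGGCGG, where the transcription factor Sp1 can bind, occurred 3 times in Adamts1 and 5 times in Adamts2, and 32.7% of windows hold it. These matches are letters in a window and were not tested for binding.

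Levels differed widely among the members. They are given as CPM, read counts scaled to library size with TMM factors, and, between genes, per kilobase of exon in GENCODE vM21. In vehicle libraries Adamts19 stood at 17.4 ± 0.274 CPM per kilobase (mean ± SD, n = 3), the highest of the 10. Adamts1 (5.88 ± 0.490), Adamts2 (5.01 ± 0.0511), Adamts9 (4.70 ± 0.214) and Adamts17 (3.52 ± 0.0838) followed, each with vehicle libraries apart from those of its neighbour in this order. Per kilobase of the longest transcript the order of 3 of these changed, with Adamts9 at 8.82, Adamts2 at 6.43 and Adamts1 at 6.38. Adamts12 had 1.78 ± 0.0604, Adamts4 1.15 ± 0.167, Adamts15 0.907 ± 0.0691, Adamts20 0.465 ± 0.0259 and Adamts5 0.272 ± 0.00407 CPM per kilobase. Outside the 10, Adamts16, a fibronectin-cutting relative also known from the gonad, stood at 19.8 ± 0.369 CPM per kilobase, above Adamts19. That order depends on the length used. GENCODE gives Adamts19 14040 exon bases but a longest transcript of 5145, and per kilobase of the longest transcript Adamts19 (47.4 ± 0.747) was above Adamts16 (26.5 ± 0.494).

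**Figure D1:**
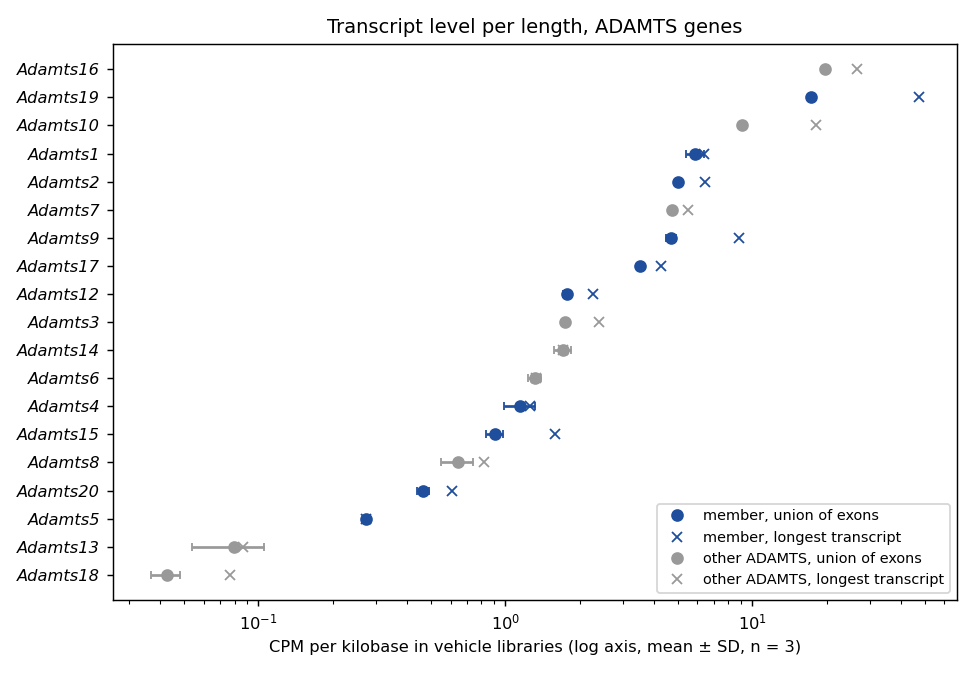
Level of all 19 ADAMTS genes in vehicle libraries in CPM per kilobase on a log axis, as the mean ± SD of 3 libraries over the union of exons (circles) and the mean per kilobase of the longest transcript (crosses); members are blue and the other 9 genes grey. Adamts16 and Adamts19 lie highest, at 19.8 and 17.4 CPM per kilobase of exon, and change places on the longest transcript.

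Adamts19 was lower with BMP2 and higher with E2 than with vehicle. The gene lies on chromosome 18 from 58836667 to 59054060, on the plus strand of GRCm38 (mm10). It had 176, 180 and 177 CPM in the BMP2 libraries, 267, 270 and 268 CPM in the E2 libraries and 248, 240 and 244 CPM in the vehicle libraries. Every BMP2 library was below every vehicle library, and every E2 library was above them. The means were 178 ± 1.96 CPM with BMP2 and 268 ± 1.89 CPM with E2, against 244 ± 3.84 CPM with vehicle (SD, n = 3 each). The difference between BMP2 and vehicle, known when the gene was chosen, was a log2 fold change of -0.46, or 1.37-fold lower. Between BMP2 and E2 it was -0.59, which is given as a description for the same reason. With E2 Adamts19 rose over vehicle (log2 fold change 0.14 ± 0.021 SE, adjusted p = 1.26e-08 by edgeR's quasi-likelihood test with Benjamini-Hochberg adjustment). The vehicle libraries in that test are those of the BMP2 comparison. In whole ovaries fewer cells of a type and less RNA per cell cannot be told apart, here and in all results that follow.

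Adamts17, the closest relative of Adamts19, fell with E2, while its BMP2 libraries overlapped those of vehicle. Its product acts on fibrillin microfibrils, and its loss in humans causes short stature and eye disease. The BMP2 libraries had 28.4, 26.7 and 27.2 CPM, the E2 libraries 20.9, 21.5 and 19.9 CPM and the vehicle libraries 27.0, 28.0 and 26.9 CPM. All E2 libraries were below all others, while those of BMP2 and vehicle overlapped. With E2 it was 1.31-fold lower than with vehicle (log2 fold change -0.39 ± 0.052 SE, edgeR adjusted p = 9.63e-11), the change of largest size with E2 among the 10 members. With BMP2 the log2 fold change was 0.0093 ± 0.049, with a 95% interval of -0.087 to 0.11 and edgeR adjusted p = 0.939. The direct comparison of BMP2 with E2 gave 0.40 ± 0.051 (edgeR adjusted p = 3.04e-11), of opposite sign to that of Adamts19.

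**Figure D2:**
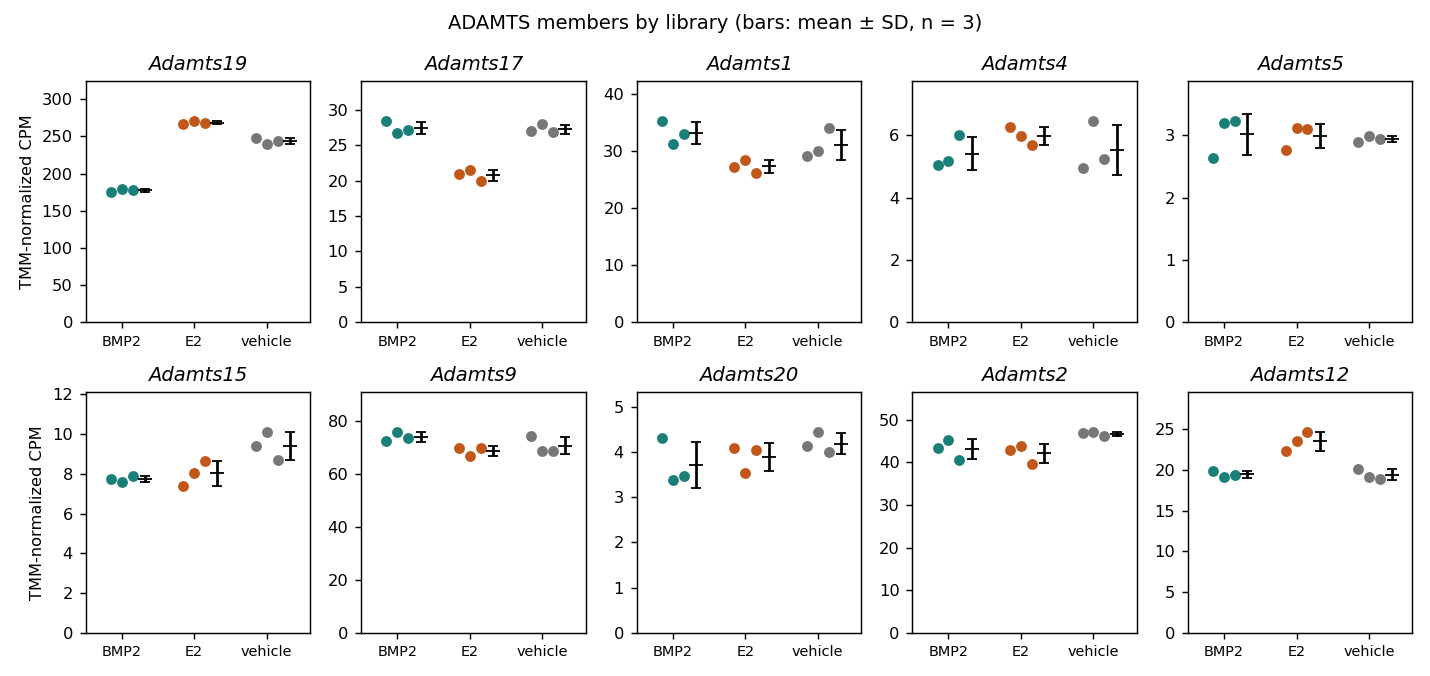
TMM-normalized CPM of the 10 members in every BMP2, E2 and vehicle library (points), with the mean ± SD of 3 libraries as bars; each axis starts at 0. Adamts19 is lowest with BMP2 (176 to 180 CPM) and highest with E2 (267 to 270 CPM), and Adamts17 is lowest with E2 (19.9 to 21.5 CPM).

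The proteases of versican and aggrecan (Adamts1, Adamts4, Adamts5, Adamts15, Adamts9 and Adamts20) gave small changes or none that passed. Adamts1 had 35.3, 31.3 and 33.0 CPM with BMP2, 27.2, 28.5 and 26.3 CPM with E2 and 29.2, 30.1 and 34.1 CPM with vehicle. E2 libraries were below all others, and those of BMP2 and vehicle overlapped. Adamts1 fell with E2 by 0.19 ± 0.050 on the log2 scale (edgeR adjusted p = 0.00139) and did not pass with BMP2 (0.092 ± 0.047, edgeR adjusted p = 0.206). Vehicle replicate 3 decided both values. Without it the log2 fold change with E2 was -0.116 (edgeR adjusted p = 0.0856) and with BMP2 0.163 (edgeR adjusted p = 0.0177). Between BMP2 and E2, where that library enters only through the shared estimate of the spread, Adamts1 was 1.21-fold higher with BMP2 (edgeR adjusted p = 9.3e-07).

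Adamts15, which cuts versican and aggrecan, was lower with both treatments than with vehicle. It had 7.73, 7.57 and 7.90 CPM with BMP2, 7.39, 8.06 and 8.63 CPM with E2 and 9.39, 10.1 and 8.68 CPM with vehicle. The lowest vehicle library was above every treated library, though by little for E2. It fell by 0.28 ± 0.083 with BMP2 (edgeR adjusted p = 0.0118) and by 0.22 ± 0.084 with E2 (edgeR adjusted p = 0.0286) on the log2 scale. BMP2 and E2 did not differ by the test (-0.054 ± 0.086, 95% interval -0.22 to 0.12, edgeR adjusted p = 0.700). Without vehicle replicate 2 neither call passed (edgeR adjusted p = 0.107 with BMP2 and 0.177 with E2). The call with E2 was also lost without vehicle replicate 1 (0.0645), E2 replicate 1 (0.175) or E2 replicate 2 (0.0638). DESeq2 called neither, with adjusted p = 0.0694 with BMP2 and 0.105 with E2. Adamts15 lies on chromosome 9 from 30899155 to 30922452 on the minus strand, 20.1 kilobases from Adamts8 on the plus strand, which is described with the other relatives.

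Adamts9 and Adamts20 are the mouse relatives of gon-1, the worm gene that shapes the gonad. Adamts9 had 72.3, 76.0 and 73.8 CPM with BMP2, 69.8, 66.7 and 70.1 CPM with E2 and 74.4, 68.9 and 68.8 CPM with vehicle. Libraries of either treatment overlapped those of vehicle, and neither comparison passed (log2 fold change 0.065 ± 0.032 with BMP2, edgeR adjusted p = 0.182, and -0.040 ± 0.033 with E2, edgeR adjusted p = 0.392). Without vehicle replicate 1 the difference with BMP2 was 0.105 (edgeR adjusted p = 0.0459). BMP2 and E2 differed from each other by 0.10 ± 0.033 (edgeR adjusted p = 0.00811), a call lost without BMP2 replicate 2 (adjusted p = 0.0719) or E2 replicate 2 (0.0992). Exons of an antisense gene cover 9.18% of those of Adamts9 and the library kit does not mark strand, so reads of both cannot be told apart there. Adamts20, mutated in the belted mouse, where pigment cells are missing from a band of skin, was low, at 3.71 ± 0.516 CPM with BMP2 and 3.89 ± 0.314 CPM with E2, against 4.18 ± 0.233 CPM with vehicle.

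The aggrecanases Adamts4 and Adamts5 were low too. Adamts4 had 5.41 ± 0.526 CPM with BMP2 and 5.97 ± 0.290 CPM with E2, against 5.54 ± 0.803 CPM with vehicle (SD, n = 3 each). Adamts5 had 3.02 ± 0.331 CPM with BMP2 and 2.99 ± 0.193 CPM with E2, against 2.94 ± 0.0439 CPM with vehicle, on 84 to 111 counts per library. Adamts4, Adamts5 and Adamts20 overlapped between all groups and passed in no comparison by edgeR. The 95% intervals of the log2 fold change with BMP2 ran from -0.23 to 0.18 for Adamts4, from -0.23 to 0.31 for Adamts5 and from -0.41 to 0.067 for Adamts20. With E2 they ran from -0.092 to 0.32, from -0.25 to 0.31 and from -0.35 to 0.13.

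Adamts2 and Adamts12 act on other substrates. Adamts2, whose product removes the amino-terminal propeptide of fibrillar procollagens, had 43.5, 45.2 and 40.6 CPM with BMP2, 42.8, 43.9 and 39.6 CPM with E2 and 46.8, 47.2 and 46.2 CPM with vehicle. All treated libraries were below all vehicle libraries. Adamts2 fell by 0.15 ± 0.040 on the log2 scale with E2 (edgeR adjusted p = 0.00154) and by 0.12 ± 0.040 with BMP2 (edgeR adjusted p = 0.0314). The call with E2 was lost without E2 replicate 3 (adjusted p = 0.0621). That with BMP2 was lost without BMP2 replicate 1 or 3 (adjusted p = 0.0662 and 0.306) and without vehicle replicate 1 or 2 (0.0893 and 0.0835). DESeq2 did not call it (adjusted p = 0.133). Without BMP2 replicate 3 the log2 fold change was -0.0762.

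Adamts12, whose product degrades cartilage oligomeric matrix protein, rose with E2. It had 19.9, 19.1 and 19.4 CPM with BMP2, 22.3, 23.6 and 24.7 CPM with E2 and 20.1, 19.2 and 18.9 CPM with vehicle. All E2 libraries were above all others. The gene was 1.21-fold higher with E2 (log2 fold change 0.28 ± 0.055 SE, edgeR adjusted p = 1.39e-05), and with BMP2 the log2 fold change was 0.0031 ± 0.056 (95% interval -0.11 to 0.11, edgeR adjusted p = 0.984). BMP2 and E2 differed by -0.27 ± 0.055 (edgeR adjusted p = 1.68e-05).

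All 10 members passed the filter on low counts. With BMP2, Adamts2 and Adamts15 were called lower than vehicle by edgeR and no member higher, and DESeq2 called neither of these. With Adamts19, which is a description here, that makes 3 of 10. This stands beside 13.7% of all 16360 genes tested that were called, 6.84% higher and 6.85% lower. At an unadjusted p under 0.05, 1 was higher (Adamts9), and DESeq2 called none higher. Since the choice of Adamts19 used this comparison, nothing is read from that share. With E2, 6 of 10 were called, 2 higher (Adamts12 and Adamts19) and 4 lower (Adamts1, Adamts2, Adamts15 and Adamts17), beside 32.3% of all genes, 15.8% higher and 16.5% lower. The median log2 fold change of the members was -0.012 with BMP2 and -0.073 with E2, beside -0.0015 and -0.0026 over all genes tested. Between BMP2 and E2, 5 of 10 were called, 3 higher with BMP2 (Adamts1, Adamts9 and Adamts17) and 2 lower (Adamts12 and Adamts19), beside 28.2% of all genes, 14.1% higher and 14% lower. Adamts19 is a description in this comparison too, so nothing is read from its place in that count. The libraries of the groups did not overlap for 3 members with BMP2 against vehicle, all lower, beside 28% of all genes, 14.1% higher and 14% lower. They did not overlap for 6 members with E2 against vehicle, 2 higher and 4 lower, beside 41.2% of all genes, 20.4% higher and 20.9% lower. They did not overlap for 5 members between BMP2 and E2, 3 higher and 2 lower, beside 39.6% of all genes, 19.8% in each direction. Adamts19, a description in comparisons of BMP2, is among these 3 with BMP2 against vehicle and these 5. The comparisons of BMP2 and of E2 share their vehicle libraries.

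**Figure D3:**
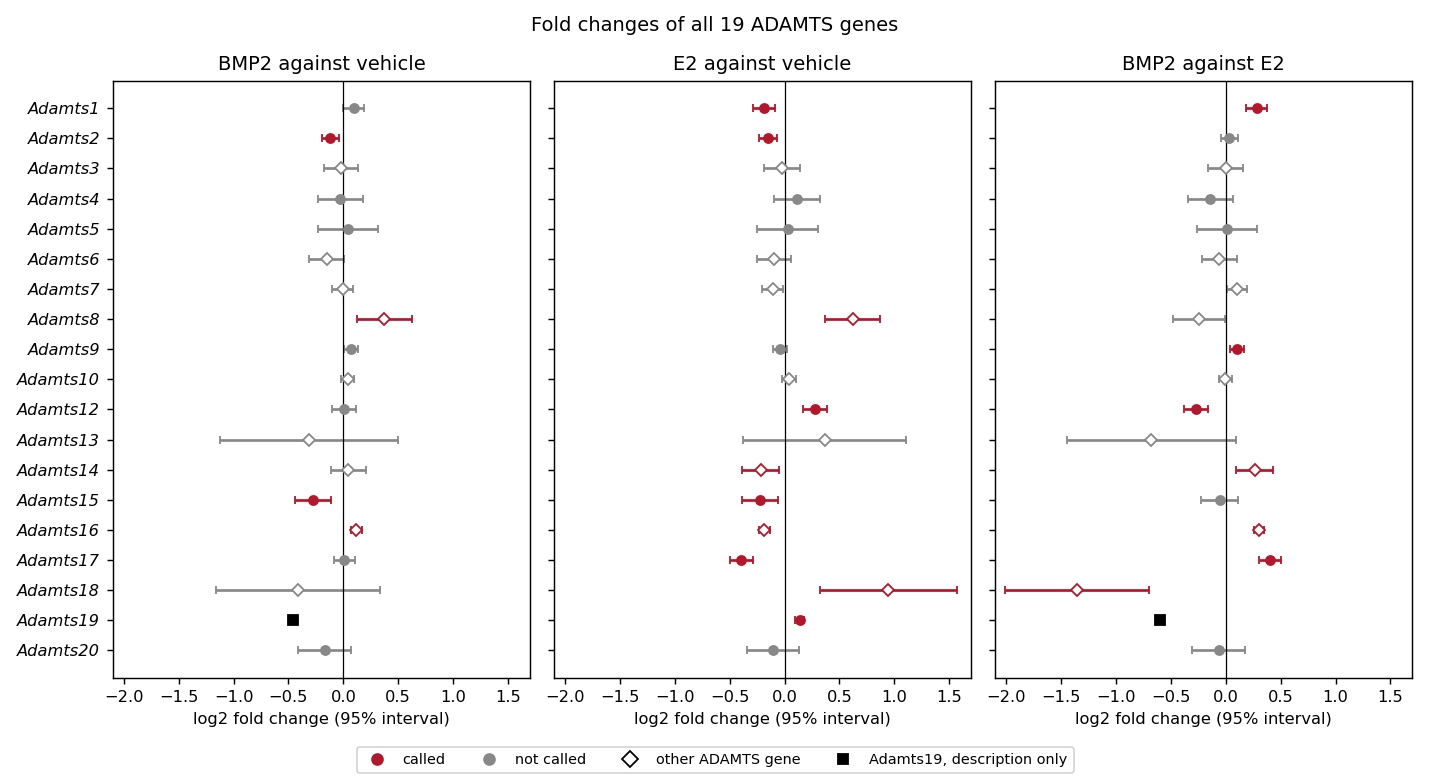
Log2 fold changes with 95% intervals of all 19 ADAMTS genes for BMP2 against vehicle, E2 against vehicle and BMP2 against E2; circles are members, diamonds the other 9 genes, red marks an edgeR adjusted p under 0.05 and black squares mark Adamts19 where it is a description only. With E2 the points of Adamts12 and Adamts19 lie right of 0 (higher with E2) and those of Adamts1, Adamts2, Adamts15 and Adamts17 left of it.

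Among the other 9 ADAMTS genes 2 rose with BMP2 by edgeR and none fell, beside 13.7% of all genes called. At an unadjusted p under 0.05 the same 2 rose and none fell, and DESeq2 called 1 higher and none lower. With E2 2 rose and 2 fell by edgeR, beside 32.3% of all genes called. Adamts16 had 147, 150 and 144 CPM with BMP2, 116, 121 and 119 CPM with E2 and 135, 133 and 138 CPM with vehicle, with no overlap between the groups. It rose with BMP2 (log2 fold change 0.12 ± 0.025 SE, edgeR adjusted p = 1.16e-04) and fell with E2 (-0.18 ± 0.026, edgeR adjusted p = 5.18e-10), each in the direction opposite to Adamts19. Adamts8, a low-level gene of the aggrecanase branch, averaged 3.87 ± 0.0870 CPM with BMP2 and 4.58 ± 0.517 CPM with E2, against 2.97 ± 0.439 CPM with vehicle. It rose 1.54-fold with E2 (edgeR adjusted p = 2.22e-05) and 1.30-fold with BMP2 (edgeR adjusted p = 0.0349), while its neighbour Adamts15 fell with both. DESeq2 did not call Adamts8 with BMP2 (adjusted p = 0.134), nor did edgeR without any BMP2 library (0.0637 to 0.101) or without vehicle replicate 2 or 3 (0.154 and 0.137). An antisense gene covers 10.6% of its exon bases.

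Adamts14, a procollagen protease related to Adamts2, fell with E2 by 0.22 ± 0.086 on the log2 scale (edgeR adjusted p = 0.0391). Adamts18 rose with E2 on 78 counts over 3 libraries, against 42 with vehicle (log2 fold change 0.95 ± 0.31 SE, edgeR adjusted p = 0.0127). DESeq2 called neither (adjusted p = 0.131 and 0.066). Adamts14 was also lost without vehicle replicate 1 (0.263), E2 replicate 1 (0.103) or E2 replicate 3 (0.149), and Adamts18 without vehicle replicate 1 (0.0582) or E2 replicate 2 (0.0583).

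Of the ADAMTS-like proteins and papilin, which resemble the proteases but lack the catalytic domain, none of 7 was called with BMP2 by edgeR or DESeq2, and 3 were lower at an unadjusted p under 0.05 (Adamtsl1, Adamtsl5 and Papln). Without BMP2 replicate 2 or vehicle replicate 3, 1 was called lower. With E2 2 rose and 1 fell. The share of all genes called was 13.7% with BMP2 and 32.3% with E2. Papln, for papilin, reached 107 ± 3.06 CPM with E2, against 64.2 ± 1.76 CPM with vehicle, 1.67-fold higher (edgeR adjusted p = 3.78e-48). Adamtsl2, which binds fibrillin and latent TGFβ binding protein, was 2.12-fold higher (3.55 ± 0.346 against 1.68 ± 0.526 CPM, edgeR adjusted p = 6.72e-09). Adamtsl1 was 1.41-fold lower (edgeR adjusted p = 1.47e-05).

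Genes of the substrates were followed too. Of all genes tested, 13.7% were called with BMP2 and 32.3% with E2. Of 12 hyaluronan-binding proteoglycans and partners, 1 rose (Hapln1, a link protein, 1.11-fold) and 1 fell with BMP2 (Vcan, for versican, the substrate of Adamts1, Adamts9 and Adamts20, 1.14-fold lower). With E2 1 rose and 4 fell, among them Hapln1 (1.38-fold lower), the hyaluronan synthase Has2 (1.35-fold lower) and Acan, for aggrecan (1.32-fold lower). With BMP2 only 1 of these genes, lower, was called without BMP2 replicate 3, vehicle replicate 2 or vehicle replicate 3, and with E2 3, all lower, without vehicle replicate 2 or E2 replicate 1. Vcan, named here after its values were seen, stood at 88.1 ± 0.662 CPM with BMP2 and 92.9 ± 1.72 CPM with E2, against 101 ± 2.90 CPM with vehicle, and its fall with E2 passed too (edgeR adjusted p = 4.53e-04). Of 17 tested genes of other matrix substrates, 5 rose and 2 fell with BMP2, led by Reln, for reelin (1.22-fold higher), and Fmod, for fibromodulin (1.19-fold lower). With E2 3 rose and 6 fell, led by Thbs1, for thrombospondin 1 (1.51-fold higher), and Fmod (1.52-fold lower).

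For the counts that follow, 13.7% of all genes were called with BMP2 and 32.3% with E2. Inhibitors, clearance receptors and activators of the proteases were also followed. Of 16 tested, 1 rose and 6 fell with E2, among them Timp4 (1.41-fold lower), Timp2 (1.27-fold lower) and the convertase Furin (1.18-fold lower), while B3galtl, whose product completes a sugar on thrombospondin repeats, was 1.55-fold higher. With BMP2 2 rose, led by the convertase Pcsk6 (1.11-fold higher), and 2 fell, Timp1 (1.16-fold lower) and Timp3 (1.05-fold lower). Timp3, the main inhibitor of the family, stood at 283 ± 2.78 CPM with BMP2 and 269 ± 2.96 CPM with E2, against 296 ± 8.74 CPM with vehicle. Among 19 tested ADAM and MMP proteases, 4 rose and 1 fell with BMP2, and 5 rose and 4 fell with E2. The count with BMP2 was 3 without any 1 of the BMP2 libraries or without vehicle replicate 1 or 2. Adam9 fell with BMP2 (1.07-fold lower) and rose with E2 (1.32-fold higher), but its BMP2 libraries overlapped those of vehicle (edgeR adjusted p = 0.0439). As the 1 gene of this list called lower with BMP2, it lost that call under DESeq2, in a fit of only the groups compared, and without BMP2 replicate 2 or 3, vehicle replicate 1, or E2 replicate 2 or 3.

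Of 8 regulators known for Adamts1 or its gonadal expression, 6 rose and 2 fell with E2, and 1 rose with BMP2. Over all genes, 32.3% were called with E2 and 13.7% with BMP2. Without E2 replicate 2 the count with E2 was 4 higher and 1 lower. Pgr, the progesterone receptor through which Adamts1 is induced at ovulation, was 3.03-fold higher with E2 (11.1 ± 0.576 against 3.66 ± 0.233 CPM), while Adamts1 itself fell with E2 as given above. Egr1, an immediate early factor, was 1.44-fold higher with BMP2 and 1.34-fold lower with E2.

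The genes whose pattern over the 9 libraries lay closest to Adamts19 were Myc, Abca6, Hbb-y, Tuba1c and Pgm5, by the root mean square difference of log2 CPM after each gene's mean was removed. For Myc, a growth-promoting transcription factor, this difference was 0.036 log2 units, beside a median of 0.26 over 10237 genes with a mean of at least 10 CPM. The other 4 lay at 0.083 to 0.11. Myc averaged 19.7 ± 0.106 CPM with BMP2 and 28.8 ± 0.374 CPM with E2, against 26.1 ± 0.916 CPM with vehicle. Among ADAMTS genes of this level, Adamts12 came nearest to Adamts19 (0.20, rank 384) and Adamts17 lay farthest (0.41, rank 10052). A gene equal in all 9 libraries would lie at 0.25, so Adamts12 was little nearer than that. Its likeness was in the rise with E2 and not in the fall with BMP2. On the 3 group means alone, 4 of the 5 closest genes were shared.

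**Figure D4:**
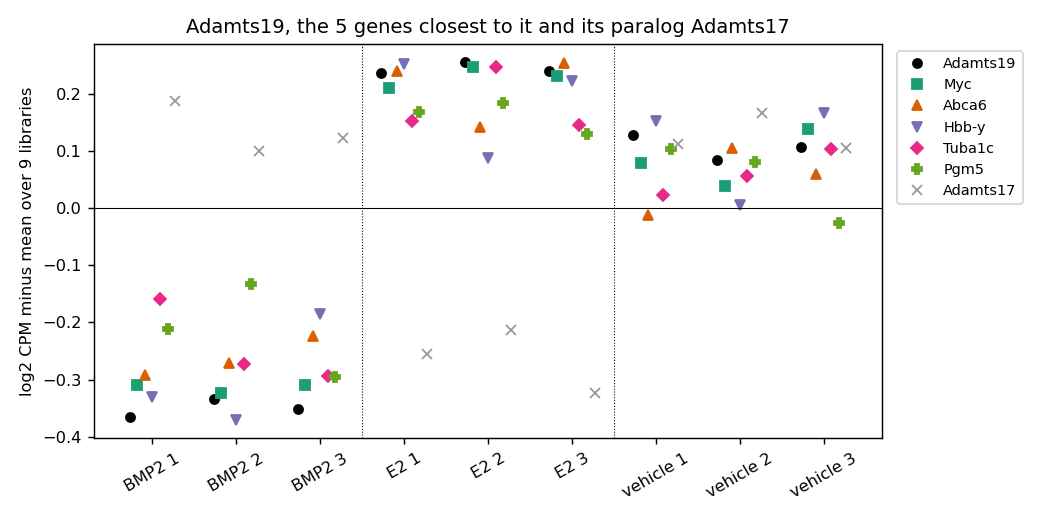
Log2 CPM minus the gene's mean over 9 libraries, for Adamts19, the 5 genes closest to it and Adamts17, in each BMP2, E2 and vehicle library. Adamts19 and Myc lie below 0 in all BMP2 libraries and above 0 in all E2 and vehicle libraries, and Adamts17 lies below 0 in all E2 libraries.

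Markers of the ovary's cell types were present in all libraries. All 12 pregranulosa cell markers and all 10 germ cell markers were detected, and 4 Y-linked genes had 0 counts. Counts of markers called stand beside 13.7% of all genes with BMP2 and 32.3% with E2. Summed levels of pregranulosa markers were 2334 to 2361 CPM with BMP2 and 2140 to 2174 CPM with E2, against 2299 to 2348 CPM with vehicle, with 4 of 12 higher and 3 lower in each comparison with vehicle. Kitl, the most abundant of them, averaged 1016 ± 7.51 CPM with BMP2 and 776 ± 4.91 CPM with E2, against 978 ± 29.2 CPM with vehicle. The lower sum with E2 thus follows Kitl and does not stand for the other pregranulosa markers. Summed levels of ovarian stroma markers were 692 to 707 CPM with BMP2 and 722 to 736 CPM with E2, against 716 to 718 CPM with vehicle, the order of Adamts19, with 0 of 10 higher and 2 lower with BMP2 and 7 higher and 3 lower with E2. Surface epithelium and mesothelium, lower with both treatments as Adamts2 and Adamts15 were, summed to 864 to 877 CPM with BMP2 and 777 to 782 CPM with E2, against 955 to 978 CPM with vehicle. Of these 8 markers 7 fell with BMP2, and 7 fell and 1 rose with E2. Endothelial markers summed to 242.5 to 249 CPM with BMP2 and 242 to 254 CPM with E2, against 239 to 246 CPM with vehicle, with 2 of 9 higher with BMP2 and 7 higher and 1 lower with E2. Germ cell markers summed to 1736 to 1790 CPM with BMP2 and 1749 to 1765 CPM with E2, against 1652 to 1749 CPM with vehicle, with 7 of 10 higher in each comparison with vehicle. Pericyte and smooth muscle markers summed to 436 to 441 CPM with BMP2 and 606 to 620 CPM with E2, against 464 to 479 CPM with vehicle. These sums had the order of Adamts19 too. Of these 9, 2 fell with BMP2, and 1 rose and 1 fell with E2. The gene that rose was Myh11, smooth muscle myosin, with 202 ± 2.80 CPM with E2, against 59.6 ± 0.689 CPM with vehicle. The other 8 summed to 379 to 384 CPM with BMP2 and 406 to 414 CPM with E2, against 405 to 419 CPM with vehicle. Without Myh11 the sums with E2 and vehicle thus overlapped. Erythroid markers, at 32.1 to 34.1 CPM with BMP2 and 40.1 to 44.3 CPM with E2, against 29.2 to 31.7 CPM with vehicle, had Hba-a1 at 0 counts in all libraries. Macrophage and leukocyte markers stood at 71.7 to 74.0 CPM with BMP2 and 66.8 to 69.0 CPM with E2, against 75.4 to 77.9 CPM with vehicle. These sums too were lower with both treatments, with 0 of 8 called with BMP2 and 4 lower with E2. Markers of the mesonephros, the adjoining embryonic kidney, stood at 143 to 147 CPM with BMP2 and 127 to 136 CPM with E2, against 146 to 151 CPM with vehicle. Most of this sum was Emx2, at 127 ± 1.46 CPM with BMP2, 117 ± 5.36 CPM with E2 and 127 ± 2.29 CPM with vehicle. Over all libraries Gata3 averaged 11.3, Pax8 5.63, Cdh16 0.863, Pax2 0.307 and Lhx1 0.254 CPM, so the sum says little of these. Of 5 tested, 2 fell and none rose with either treatment. The 6 tested markers of neurons and glia summed to 137 to 143 CPM with BMP2 and 81.1 to 86.7 CPM with E2, against 116 to 119 CPM with vehicle, the order of Adamts16 and the reverse of that of Adamts19. Of these 6, 1 rose and 1 fell with BMP2, and 2 fell with E2. Testis markers stood at 19.1 to 19.8 CPM with BMP2 and 15.4 to 16.6 CPM with E2, against 19.5 to 22.1 CPM with vehicle. The part of these shifts in the ADAMTS results was not tested.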

How the data were processed

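Ovary RNA from 3 groups of 3 libraries was sequenced after TruSeq RNA v2 preparation, per the labels' protocols, which keeps no record of strand. Each file the authors deposited lists unnormalized read counts by gene symbol. The submitters' processing notes name TopHat2, HTSeq, DESeq2 and the build mm10; for the annotation and strand setting the sources used here name nothing. Rows that tally unassigned reads held 38.2% to 39.7% of a library's total and were left out. Counting error and the spread between 3 libraries set the precision.

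Tests used edgeR 4.0.16 (R 4.3.3): filterByExpr defaults (minimum count 10, minimum total 15) kept 16360 genes, TMM scaling, 1 robust quasi-likelihood fit with a mean per group over all 9 libraries (6 residual degrees of freedom), F tests, Benjamini-Hochberg adjustment over all genes tested and a threshold of 0.05. Standard errors are the log2 fold change over the square root of F. The fit was tested on simulated data. The members and lists were chosen with earlier results of these data known. In all, 7 lists of related genes and 11 of cell type markers (184 entries, 183 found, 2 of them under an older symbol) are described by counts and medians, with no set test; 1 marker gene is not reported here. The rule for names was all members, called ADAMTS genes, and from each other list up to 3 called genes in each direction by fold change with at least 1 CPM. The 5 genes most like Adamts19 were taken from those with a mean of at least 10 CPM, without predicted genes (Gm or Rik symbols). Coordinates and exon lengths are from GENCODE vM21 (GRCm38, which is mm10), and promoter windows from RefSeq. Replicate numbers were not taken to pair libraries. Alternatives were DESeq2 1.42.0, its size factors, other filters, only the groups compared, a replicate block, each library left out and a threshold of 0.01.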

Additional observations from a re-analysis of the deposited data

How the results depend on the processing

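Each of the 30 member log2 fold changes was recomputed under 15 alternatives. Of these 450 values, 416 kept direction and side of the threshold, 16 lost a call, 2 gained one and 16 changed sign, all of these in differences that had not passed. The alternatives include leaving out each of the 3 libraries of the group not compared. Such a library can move a value only through the filter, the scaling and the shared estimate of the spread. Adamts19 was called higher with E2 under each alternative, with log2 fold changes of 0.127 to 0.148. With BMP2, where it is a description, they were -0.468 to -0.446. DESeq2 called 1409 genes with BMP2 (722 higher and 687 lower, against 2239), 1 member and 1 other ADAMTS gene with BMP2, and 2 other ADAMTS genes with E2. At a threshold of 0.01 these counts were 1318, 1, 1 and 2. The 1 member in each case was Adamts19, a description with BMP2, which the counts of members below include too. Without 1 library at a time, members called ranged from 1 to 4 with BMP2, 5 to 6 with E2 and 4 to 5 between BMP2 and E2. Other ADAMTS genes called ranged from 1 to 2, 2 to 4 and 2 to 4. All genes called ranged from 1631 to 2235, 4520 to 5316 and 3938 to 4848. Signs changed, in values that did not pass, for Adamts4 (-0.11 to 0.0932), Adamts5 (-0.0121 to 0.128), Adamts12 (-0.0166 to 0.0319), Adamts14 (-0.0109 to 0.114) and Adamts17 (-0.0161 to 0.0293) with BMP2, and for Adamts2 (-0.0101 to 0.0733), Adamts5 (-0.0418 to 0.0982) and Adamts15 (-0.11 to 0.000129) between BMP2 and E2. The cause was not tested.

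With the replicate number as a block, 2512 genes were called with BMP2, 5512 with E2 and 4875 between BMP2 and E2, and 3, 6 and 5 members, as without the block. Deviations of same-numbered libraries correlated by -0.0311 to 0.0271. Between BMP2 and vehicle each BMP2 library correlated highest with the vehicle library of its own number, while the other comparisons were mixed. The titles do not say what the number marks, so the numbers were not taken as pairs, and a weak pairing was not excluded. Signals under about 10 CPM, as for Adamts4, Adamts5 and Adamts20, limit what depth can show.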
